A study of Mus musculus with 10 samples.

Results

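The genes described here are 10 members of the Ly6/uPAR family, named Slurp1, Slurp2, Ly6d, Ly6g6c, Ly6k, Lypd2, Lypd3, Ly6a, Ly6c1 and Ly6e, out of 54446 genes in the deposited table of mouse esophagus. They were taken by gene symbol, and they had been chosen by their measured values in this same comparison, so their differences between the groups are given as descriptions with no p-value. Where a member is said to be called, the word only places it by the threshold used for the whole table, beside the share of all genes past it, and supports nothing. The tested tissue was whole esophagus of WT C57BL/6 mice in an experimental model of eosinophilic esophagitis driven by the chemical allergen oxazolone (OXA), in 5 libraries titled C1, D1, D2, D3 and D4. The comparison group was esophagus of WT C57BL/6 mice given vehicle, in 5 libraries titled A1 to A5. The labels state neither age, sex, dose and schedule nor whether each library is 1 animal, so the spread between libraries may be partly technical. The letters of the titles divide with the treatment, and the labels do not say what they stand for.

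Proteins of this family fold into a compact domain of 3 loops, or fingers, held together by disulfide bonds, the same fold as in snake venom toxins that block nicotinic acetylcholine receptors. Slurp1 and Slurp2 are secreted without a membrane anchor, whereas most other members are tied to the outer cell surface by a lipid anchor (GPI). Stratified squamous epithelium, such as that of the esophagus, makes several members in its differentiating layers, and in the mouse Ly6a and the Ly6c proteins are classical surface antigens of leukocytes and endothelial cells. The 10 members were read in 3 assigned groups of roles: 2 secreted epithelial proteins, 5 epithelial proteins on the cell surface, and 3 proteins of leukocytes and stroma. Ly6e was placed in the last group with Ly6a and Ly6c1. Which cells made each transcript was not measured in this whole tissue.

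The libraries were made by CEL-Seq, which counts the 3′ ends of polyadenylated transcripts, so values are not divided by transcript length. They held between 3675479 (D2) and 8364227 (D1) reads in OXA, against 5094159 (A5) to 12108822 (A4) in vehicle, as recovered from the normalized counts. A gene with 3 reads in a library had 2.13 to 5.43 normalized counts in OXA and 1.56 to 4.29 in vehicle, and values below that are close to nothing. Transcripts of salivary gland and thyroid, the neighbouring tissues, summed to at most 7.66 and 13.4 normalized counts in any library, while 15 markers of suprabasal squamous epithelium summed to 230298 to 606935 in OXA and 682549 to 1148100 in vehicle. Skeletal muscle, which forms the outer wall of the mouse esophagus, varied most within OXA, where its 8 markers summed to 50226 (D4) to 188001 (D1), against 102044 to 130219 in vehicle.

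The directions of the 10 members are listed by role, as a description of genes picked from this contrast. Both secreted proteins and 3 of the 5 epithelial surface proteins were lower in OXA, the remaining 2 surface proteins were not called, and all 3 leukocyte and stromal members were higher. A gene was called when limma's two-sided test on log2(normalized count + 1) gave a Benjamini-Hochberg adjusted p under 0.05 over 14712 genes, those whose mean over the libraries reached 5. All 10 members passed this filter, Slurp2 only through its vehicle libraries. Of all tested genes, 15.7% were called higher and 14.2% lower, beside 3 and 5 of the 10 members. For 2 members every OXA library lay above every vehicle library, as it did for 12.0% of all tested genes, and for 3 members every OXA library lay below, as for 10.4%. Since these members were picked from this contrast, nothing is read from those counts. The median log2 fold change was -0.72 over the members and -0.01 over all tested genes.

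**Figure D1:**
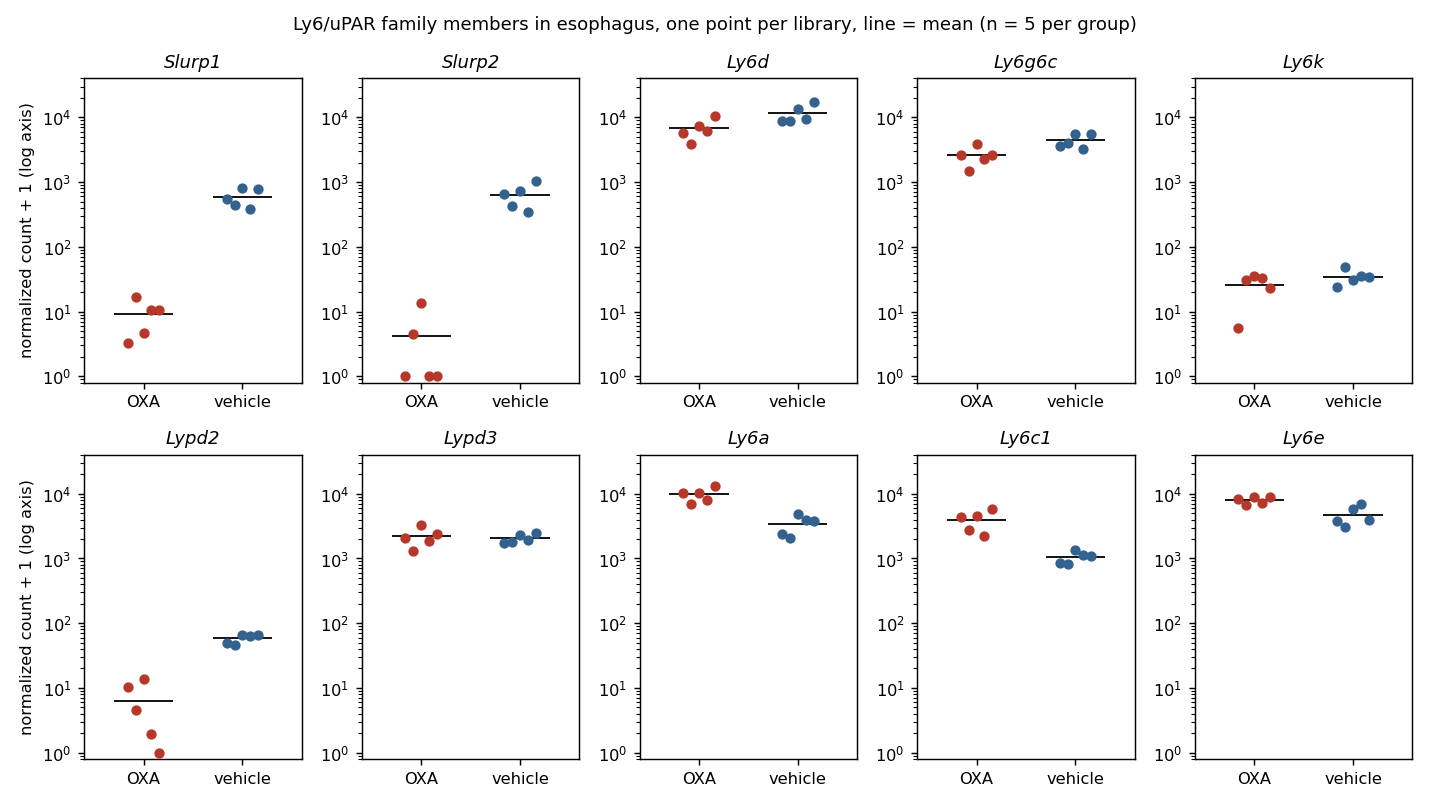
Normalized counts plus 1 (log axis) of the 10 members in each of 5 OXA libraries (red) and 5 vehicle libraries (blue), with the group mean of the plotted values as a line. Slurp1, Slurp2 and Lypd2 sit near the bottom of the axis in OXA, Ly6a and Ly6c1 lie above every vehicle library, and the other 5 overlap between the groups.

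Slurp1 (ENSMUSG00000022596.3, chromosome 15, 74724018 to 74728034, minus strand, GRCm38) encodes a secreted protein of keratinocytes that acts on the alpha7 nicotinic receptor, and in humans its loss causes the skin disorder Mal de Meleda. Its normalized counts were 2.29 in C1, 15.64 in D1, 3.62 in D2, 9.58 in D3 and 9.58 in D4 of OXA, against 541.33 in A1, 440.98 in A2, 802.89 in A3, 381.2 in A4 and 776.97 in A5 of vehicle. Every OXA library was far below every vehicle library, and the lowest OXA values, in C1 and D2, were at or below what 3 reads are worth. The means were 8.14 ± 5.36 in OXA and 589 ± 193 in vehicle (SD, n = 5 each), which is 72.3 times lower in OXA, with a log2 fold change of -6.18 ± 0.39 (SE). Over all libraries of a group, 43 reads fell on Slurp1 in OXA and 3216 in vehicle.

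Slurp2 (ENSMUSG00000075605.3, chromosome 15, 74742464 to 74746693, minus strand), the second secreted protein of the pair, also modulates cholinergic receptors, and its loss gives mice thickened paw skin. It had no read in C1, D3 and D4, and 3.55 and 12.67 normalized counts in D1 and D2 of OXA, against 643.03 in A1, 424.48 in A2, 717.14 in A3, 348.48 in A4 and 1030.23 in A5 of vehicle. The 3 OXA libraries without a read allow up to 2.29 normalized counts in C1, 2.87 in D3 and 4.79 in D4. The means were 3.24 ± 5.49 in OXA and 633 ± 269 in vehicle, a log2 fold change of -8.01 ± 0.65. This was the most negative value among all 14712 tested genes, and Slurp1 came at rank 8. Only 12 of 29909479 reads fell on Slurp2 in OXA (95% exact Poisson interval 6.201 to 20.96 reads), against 3319 of 39372831 in vehicle (3207 to 3434). The intervals cover counting error only.

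In vehicle the pair ran close together, with Slurp2 at 89.3% to 133% of Slurp1 in the 5 libraries. The annotated transcripts of Slurp1 and Slurp2 had no stretch of 36 bases in common, nor one of 25. No read of that length from them would match both exactly. Reads with mismatches and bases past the annotated 3′ ends were not examined. Slurp1 shares 922 bases with Them6 on the opposite strand, and Them6 averaged 24.3 normalized counts in OXA and 27.3 in vehicle. No source used here states whether the authors' counting used strand. Slurp2 overlaps no other gene in the table.

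Lypd2 (ENSMUSG00000022595.7, chromosome 15, 74731947 to 74734329, minus strand) encodes an anchored family protein and lies between Slurp1 and Slurp2. Its normalized counts were 9.16 in C1, 3.55 in D1, 12.67 in D2, 0.96 in D3 and 0 in D4 of OXA, against 48.28, 45.75, 65.28, 62.32 and 64.39 in A1 to A5 of vehicle. No OXA library came near the lowest vehicle library, although the counts of this gene were small throughout (25 reads in OXA and 340 in vehicle). The means were 5.27 ± 5.46 in OXA and 57.2 ± 9.41 in vehicle, and the log2 fold change was -3.79 ± 0.60. It ranked 54 from the most negative value among the tested genes.

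Ly6d (ENSMUSG00000034634.7, chromosome 15, 74761756 to 74763620) is an anchored protein of stratified keratinocytes and, in mouse bone marrow, a mark of early B-lineage cells. It had 5755.47 normalized counts in C1, 3901.61 in D1, 7375.77 in D2, 6227.01 in D3 and 10687.56 in D4 of OXA, against 8847.27, 8651.54, 13580.84, 9575.71 and 17306.44 in A1 to A5 of vehicle. Only D4 reached into the vehicle range. The log2 fold change was -0.79 ± 0.28, and the call was lost in 12 of 24 alternative settings.

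Ly6g6c (ENSMUSG00000092586.8, chromosome 17, 35065388 to 35070350, plus strand) lies in the major histocompatibility complex, away from the chromosome 15 cluster. It had 2626.6 normalized counts in C1, 1472.79 in D1, 3934.11 in D2, 2313.82 in D3 and 2648.35 in D4 of OXA, against 3620.88, 3956.79, 5483.78, 3303.56 and 5620.48 in A1 to A5 of vehicle. D2 alone reached the vehicle range, and D1 was the lowest, as it was for Ly6d. The log2 fold change was -0.79 ± 0.24, and its call was lost in 3 of 24 settings. Mpig6b, which shares 797 bases with it on the other strand, averaged 18.4 normalized counts in OXA and 5.57 in vehicle.

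Lypd3 (ENSMUSG00000057454.5, chromosome 7, 24636550 to 24641418), also known as C4.4A, is an anchored protein of suprabasal squamous cells that binds laminins. Its normalized counts were 2047.24, 1283, 3316.74, 1866.57 and 2407.3 in C1 and D1 to D4 of OXA, against 1758.57, 1784.91, 2340.45, 1951.7 and 2516.91 in A1 to A5 of vehicle. The OXA libraries spread on both sides of the vehicle ones, with D1 below and D2 above all of them, and the log2 fold change was 0.02 ± 0.22. Ly6k (ENSMUSG00000044678.11, chromosome 15, 74796574 to 74799986) is best known in the mouse for its part with Tex101 in sperm function. It had 4.58, 29.85, 34.4, 31.6 and 22.35 normalized counts in the same order of OXA libraries, against 22.6, 48, 30.21, 34.28 and 32.91 in vehicle. Apart from C1, the groups lay in one range, and the log2 fold change was -0.64 ± 0.45.

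In whole tissue, fewer cells of a type and less RNA per cell cannot be told apart, so the epithelial members were also set against suprabasal markers of the same library, a ratio in which the scaling between libraries cancels. Of the 15 markers, 14 were tested, of which 9 were lower and none higher in OXA, and Krt4 and Krt13 made up 81.6% to 87.5% of their sum. Per 1000 summed marker counts, Slurp1 had 0.00580 to 0.0679 in OXA and 0.515 to 0.839 in vehicle. Slurp2 had 0 to 0.0209 in OXA and 0.471 to 0.897 in vehicle, and Lypd2 had 0 to 0.0232 in OXA and 0.0561 to 0.0842 in vehicle. These 3 neighbours were thus below every vehicle library on this scale too.

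On that scale 2 other epithelial members were higher in every OXA library. Ly6g6c had 6.40 to 8.34 per 1000 in OXA and 4.46 to 5.80 in vehicle, and Lypd3 had 5.19 to 7.58 in OXA and 2.19 to 2.64 in vehicle, with no overlap for either gene. Ly6d had 12.2 to 33.7 in OXA and 11.8 to 15.1 in vehicle, and Ly6k had 0.0116 to 0.130 in OXA and 0.0287 to 0.0703 in vehicle, both with overlap, and C1 of OXA had the lowest Ly6k ratio of all. The lower denominator is part of each of these ratios, and its part in them was not tested.

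**Figure D2:**
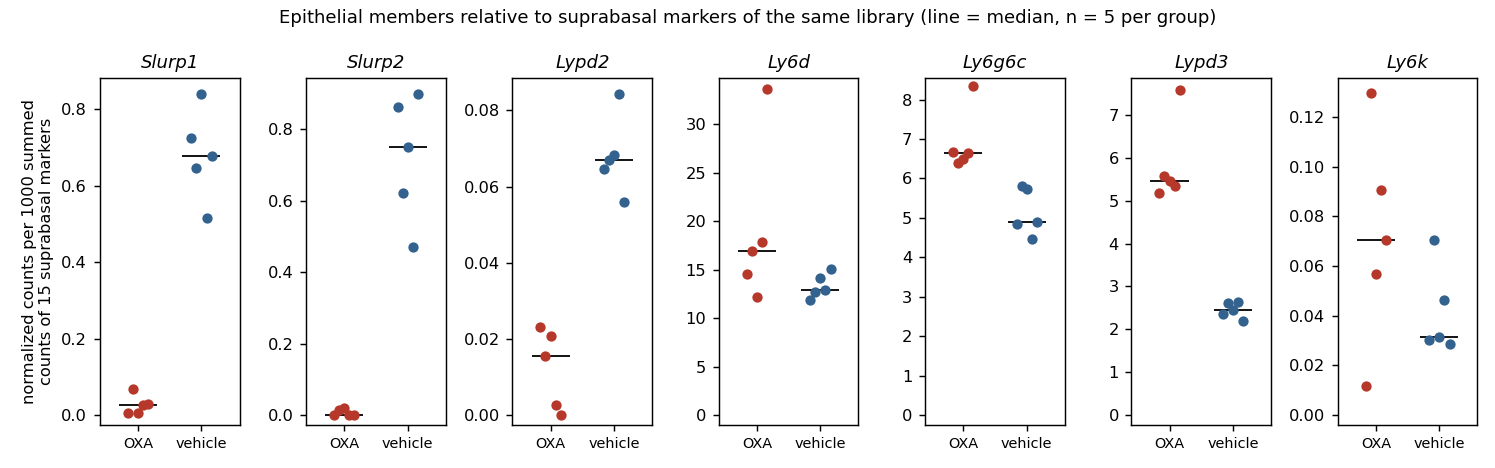
Normalized counts of 7 epithelial members per 1000 summed counts of 15 suprabasal markers in the same library, with OXA in red, vehicle in blue and the median as a line (each panel has its own linear axis). Slurp1, Slurp2 and Lypd2 are near 0 in every OXA library, while Ly6g6c and Lypd3 lie above all vehicle libraries.

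Ly6a (ENSMUSG00000075602.10, chromosome 15, 74994577 to 74998031) is the stem cell antigen Sca-1, carried by mouse blood stem cells, activated T cells, endothelium and some fibroblasts. Its normalized counts were 10232.38 in C1, 6950.96 in D1, 10442.67 in D2, 8100.28 in D3 and 13217.78 in D4 of OXA, against 2375.91, 2080.39, 4796.85, 3868.61 and 3826.16 in A1 to A5 of vehicle. Every OXA library was above every vehicle library. The mean was 9789 ± 2413 in OXA and 3389.6 ± 1134 in vehicle, 2.89 times higher in OXA, with a log2 fold change of 1.56 ± 0.25.

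Ly6c1 (ENSMUSG00000079018.10, chromosome 15, 75043718 to 75048830, minus strand) encodes the Ly6C antigen of mouse endothelium and T cells. It had 4365.46 normalized counts in C1, 2787.78 in D1, 4593.11 in D2, 2239.12 in D3 and 5742.07 in D4 of OXA, against 856.68, 818.21, 1339.77, 1139.97 and 1097.48 in A1 to A5 of vehicle. The groups did not overlap, and D4 was the highest OXA library for Ly6a and Ly6c1 alike. The mean was 3946 ± 1421 in OXA and 1050.4 ± 215 in vehicle, a log2 fold change of 1.85 ± 0.24.

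Ly6e (ENSMUSG00000022587.14, chromosome 15, 74955051 to 74960205) is an interferon-induced anchored protein that restricts coronaviruses and serves as the receptor of syncytin-A in the mouse placenta. It had 8228.65 normalized counts in C1, 6690.09 in D1, 8987.07 in D2, 7139.7 in D3 and 9048.11 in D4 of OXA, against 3732.84, 3088.34, 5731.27, 6889.13 and 3894.84 in A1 to A5 of vehicle. The groups touched at a single point, where the vehicle library A4 was above D1. The mean was 8019 ± 1070 in OXA and 4667 ± 1584 in vehicle, a log2 fold change of 0.83 ± 0.22. The call was lost when A5, D2 and D4 were left out.

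Markers of the cell types set beside these 3 proteins differed in unequal degree. Of 10 endothelial markers, 1 was called higher and their sum was 554 to 1378 in OXA and 432 to 793 in vehicle, so the groups overlapped. Of 10 T cell markers, 9 were higher, with a sum of 438 to 524 in OXA and 54.4 to 135 in vehicle. Monocyte and macrophage markers were higher in 9 of 10, summing to 2859.7 to 5656 in OXA and 1499 to 2285 in vehicle. Fibroblast markers were higher in 2 of 10, with sums of 27775 to 49106 in OXA and 24068 to 35436 in vehicle. Per 1000 summed endothelial counts, Ly6a had 5046 to 21618 in OXA and 2644 to 9653 in vehicle, and Ly6c1 had 2009 to 9391 in OXA and 1040 to 2696 in vehicle, both with overlap. The part of each cell type in the differences was not tested.

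Interferon response genes were higher as well. Of 20 such genes, 16 were called higher and none lower, with a median log2 fold change of 2.16, and their sum was 5968 to 9717 in OXA and 801 to 4471 in vehicle. The vehicle libraries with the most Ly6e, A4 and A3, were also the 2 with the highest interferon sum (4471 and 2899.7). After the group means were removed from the log2 values, Ly6e and that sum correlated at r = 0.89 over the 10 libraries (Spearman 0.85, and r = 0.90 over 8 libraries without the 2 farthest in the sum). For Ly6a the same r was 0.55 over 10 libraries and 0.90 over those 8, and for Ly6c1 0.43 and 0.67, so that Ly6a and Ly6e had the same value once the 2 libraries were left out. The 3 protein-coding genes whose pattern was most like that of Ly6e by this measure were Irf9 (r = 0.96), H2-K1 (r = 0.95) and Ifi27l2a (r = 0.95). All points of such a correlation share library, depth and tissue make-up, and they are given as descriptions.

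**Figure D3:**
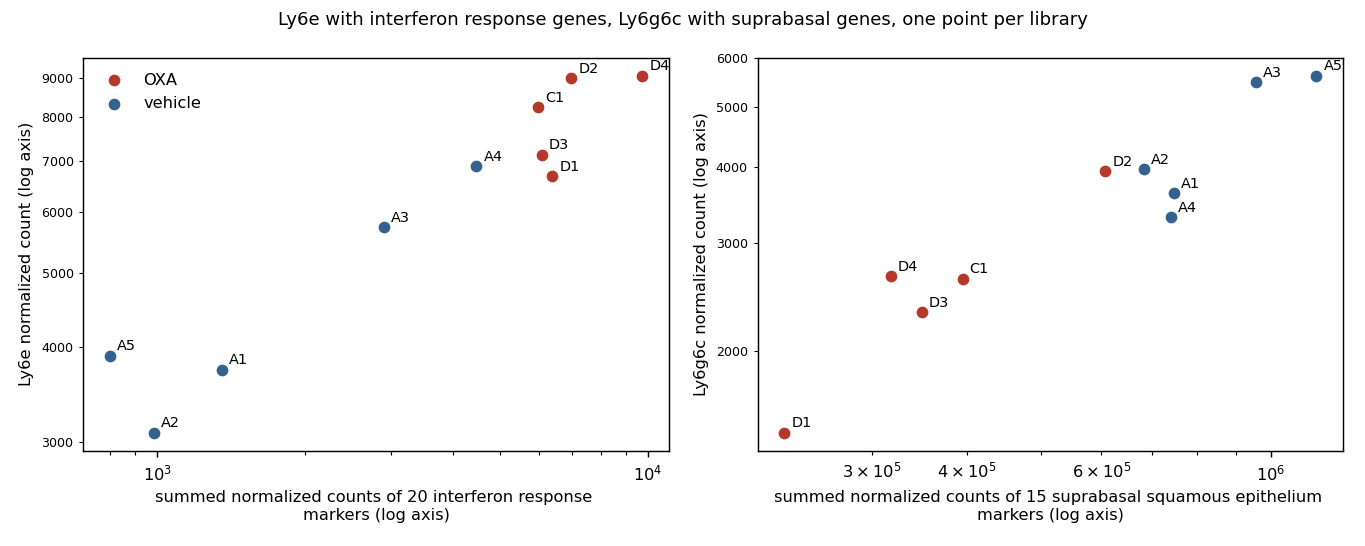
Ly6e against the summed counts of 20 interferon response genes (left), and Ly6g6c against the summed counts of 15 suprabasal markers (right), in normalized counts on log axes, with 1 point for each OXA (red) or vehicle (blue) library. The vehicle libraries A4 and A3 stand out from the other vehicle libraries along both axes of the left panel, and D1 has the lowest values of the right panel.

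By the same measure, some members with many reads varied together from library to library. Ly6g6c and Lypd3, on different chromosomes, correlated at r = 0.94 (0.83 without the 2 farthest libraries), and Ly6d and Lypd3 at r = 0.79 (0.93). Ly6a correlated with Ly6c1 at r = 0.84 (0.91) and with Ly6e at r = 0.80 (0.84), and Ly6c1 with Ly6e at r = 0.65 (0.78). Pairs from different roles reached similar values, with r = 0.77 (0.66) for Ly6d and Ly6a, 0.68 (0.63) for Lypd3 and Ly6c1, and 0.67 (0.52) for Lypd3 and Ly6a. Other pairs of one role did not rise and fall together over the 10 libraries. They had r = -0.29 (-0.80) for Ly6k and Lypd2, -0.25 (0.06) for Ly6d and Lypd2 and -0.04 (-0.31) for Ly6g6c and Ly6k. Of these genes Ly6k and Lypd2 had few reads, and their values moved when libraries were left out. Ly6g6c and Lypd3 followed the suprabasal sum, with r = 0.93 and r = 0.91, and ran against the endothelial sum, with r = -0.90 and r = -0.93. Members of both kinds of role ran against the endothelial sum, with r = -0.90 for Ly6d, -0.75 for Ly6a and -0.77 for Ly6c1. For Ly6e the value was -0.37.

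The genes with the most similar pattern were Rab25 (r = 0.995), Pinlyp (r = 0.99) and Sytl1 (r = 0.99) for Lypd3. They were Hebp2 (r = 0.99), Tmem79 (r = 0.98) and Cd9 (r = 0.98) for Ly6g6c, and Ptrhd1 (r = 0.99), Trim29 (r = 0.99) and Gatad2a (r = 0.98) for Ly6d. For Ly6a they were Cers6 (r = 0.96), Itpripl1 (r = 0.95) and Bcl2l1 (r = 0.95), and for Ly6c1 Eif3m (r = 0.96), Gem (r = 0.96) and Cytip (r = 0.95). Slurp1 and Slurp2 gave r = 0.09 over the 10 libraries, a value that rests on OXA libraries with few or no reads. For that reason the nearest genes of Slurp1, Slurp2, Lypd2 and Ly6k are not read further.

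Of 40 other family genes listed by symbol, 33 were in the table under that symbol and 17 of them could be tested. Among these, 4 were higher, 5 lower and 8 not called in OXA, with a median log2 fold change of 0.13. The 16 untested genes had a mean under 5, and 7 of them had no read at all. A family gene that the table holds under another symbol is not in these counts. I830127L07Rik, which ends where the RefSeq transcript of the listed Ly6a2 starts, had 12 reads in OXA and 0 in vehicle. The list was drawn up with earlier results of these data known.

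All 4 genes that were higher lie in the chromosome 15 cluster. Ly6c2, the monocyte form of Ly6C in the mouse, had 213.73, 176.28, 124.92, 112.05 and 491.68 normalized counts in C1 and D1 to D4 of OXA, against 13.35, 12, 18.51, 16.1 and 7.15 in A1 to A5 of vehicle. It did not overlap between the groups, and D4 again was highest. The log2 fold change was 3.80 ± 0.37 (limma adjusted p = 7.79e-06). Its ratio to Ly6c1 was 2.72% to 8.56% in OXA and 0.651% to 1.56% in vehicle.

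Ly6i, another Ly6 antigen of the mouse, averaged 57.2 ± 15.04 in OXA and 9.83 ± 4.63 in vehicle (log2 fold change 2.51 ± 0.35, limma adjusted p = 1.38e-04). Psca, the prostate stem cell antigen, found on several epithelia, averaged 62.8 ± 31.3 in OXA and 17.3 ± 3.76 in vehicle (1.68 ± 0.33, limma adjusted p = 0.00188). Gml, a GPI-anchored family protein, averaged 15.8 ± 6.96 in OXA and 1.01 ± 0.625 in vehicle, where it had only 7 reads and passed the filter only through OXA (3.03 ± 0.50, limma adjusted p = 5.36e-04). None of the 3 genes overlapped between the groups. Ly6g, which encodes the granulocyte antigen Ly-6G, had 2 reads in OXA and 1 in vehicle over all libraries. Of 10 neutrophil markers, 7 were tested, of which 5 were higher, 1 lower and 1 not called, and the list summed to 1209 to 5019 in OXA and 358 to 468 in vehicle.

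The mouse Ly6 antigens are close copies, so that some of their reads may not be assigned to 1 gene. The transcripts of Ly6c1 and Ly6c2 share 353 stretches of 36 bases, which is 20.01% of those in Ly6c1 and 42.5% of those in Ly6c2. Within the last 300 bases, where CEL-Seq reads lie, 26.0% of the stretches of Ly6c1 also occur in Ly6c2, and 40.0% of those of Ly6c2 occur in Ly6c1. Over whole transcripts, Ly6a and Ly6c1 share 257 stretches of 36 bases, or 20.2% and 14.6% of their own. Ly6a and Ly6i share 75, or 5.91% and 6.49%. In OXA, Ly6c2 had 1022 reads beside 18113 for Ly6c1, and Ly6i had 260 beside 45690 for Ly6a. No source used here states how reads that fit several genes were treated, so the split between these genes is uncertain.

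The sequences before the starts of Ly6c1 and Ly6c2 are shown because these 2 neighbouring copies were both higher in OXA. They are the 250 bases upstream of 1 RefSeq transcript start of each gene on GRCm38.p6, minus strand, read 5′ to 3′. The positions are chr15:75048838-75049087 for Ly6c1 and chr15:75111972-75112221 for Ly6c2. Of the 2 starts listed for each gene, the pair whose promoters aligned best was taken. Capitals mark the longest stretch that is identical in both when they are aligned.
Ly6c1: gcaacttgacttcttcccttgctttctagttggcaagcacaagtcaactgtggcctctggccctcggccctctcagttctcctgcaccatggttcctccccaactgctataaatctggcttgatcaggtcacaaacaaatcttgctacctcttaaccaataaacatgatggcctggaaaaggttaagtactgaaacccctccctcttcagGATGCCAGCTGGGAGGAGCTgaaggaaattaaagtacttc
Ly6c2: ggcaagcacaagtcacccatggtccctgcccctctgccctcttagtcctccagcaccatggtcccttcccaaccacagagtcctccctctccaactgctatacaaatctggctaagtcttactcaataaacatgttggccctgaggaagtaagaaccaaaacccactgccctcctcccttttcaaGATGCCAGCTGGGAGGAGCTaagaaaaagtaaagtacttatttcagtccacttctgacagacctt

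The 2 sequences, taken as the best-aligned pair, were identical at 164 of 250 bases (65.6%) in an alignment of 284 columns with gaps. The 20 capital bases begin 40 bases before the Ly6c1 start and 65 bases before the Ly6c2 start. Motifs were searched on both strands of the 300-base RefSeq promoters, which matched 3 of the 10 members (Ly6c1, Ly6g6c and Lypd3). They were the interferon-stimulated response element core TTTCNNTTTC, the GAS element TTCNNNGAA, the STAT6 element TTCNNNNGAA and the AP-1 element TGANTCA. None of the 4 occurred in these windows of the 3 members or of Ly6c2. Of 32851 promoters of the same length, 3.44%, 8.3%, 6.95% and 7.81% hold the motifs in that order.

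The 5 other family genes called lower under the listed symbols all lie outside the chromosome 15 cluster. Inside it, 2010109I03Rik, which matched no listed symbol, was also lower, as given below. Lypd5, a keratinocyte protein of the upper epidermis in humans, averaged 1774 ± 849 in OXA and 3647 ± 714 in vehicle (-1.14 ± 0.27, limma adjusted p = 0.00526). Its ratio to Lypd3 was 66.8% to 95.7% in OXA and 149.5% to 191% in vehicle, with no overlap. Pinlyp, a family gene named for a phospholipase A2 inhibitor domain, averaged 209 ± 94.2 in OXA and 563 ± 135 in vehicle (-1.52 ± 0.28, limma adjusted p = 0.00118).

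Ly6g6e, a neighbour of Ly6g6c, averaged 163 ± 78.9 in OXA and 378 ± 138 in vehicle (-1.29 ± 0.32, limma adjusted p = 0.00761). Lypd6, which modulates Wnt and nicotinic receptors, averaged 4.29 ± 3.98 in OXA and 24.99 ± 12.1 in vehicle (-2.55 ± 0.64, limma adjusted p = 0.00828). It passed the filter only through vehicle, with 16 reads in OXA. Its paralog Lypd6b averaged 75.9 ± 28.2 in OXA and 158 ± 63.4 in vehicle (-1.08 ± 0.31, limma adjusted p = 0.0187). Pinlyp, Ly6g6e and Lypd6b did not overlap between the groups, whereas Lypd5 and Lypd6 did.

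The 8 tested family genes that were not called were Ly6f, Ly6g5b, Lynx1, Gpihbp1, Cd59a, Cd59b, Plaur and Lypd8. Cd59a, an inhibitor of complement on cell surfaces, had a log2 fold change of 0.01 ± 0.22, and Gpihbp1, which carries lipoprotein lipase across capillary endothelium, one of 0.13 ± 0.27. Plaur, the urokinase receptor, had 0.76 ± 0.37 (limma adjusted p = 0.135), and Ly6f 1.08 ± 0.42 (limma adjusted p = 0.0669).

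**Figure D4:**
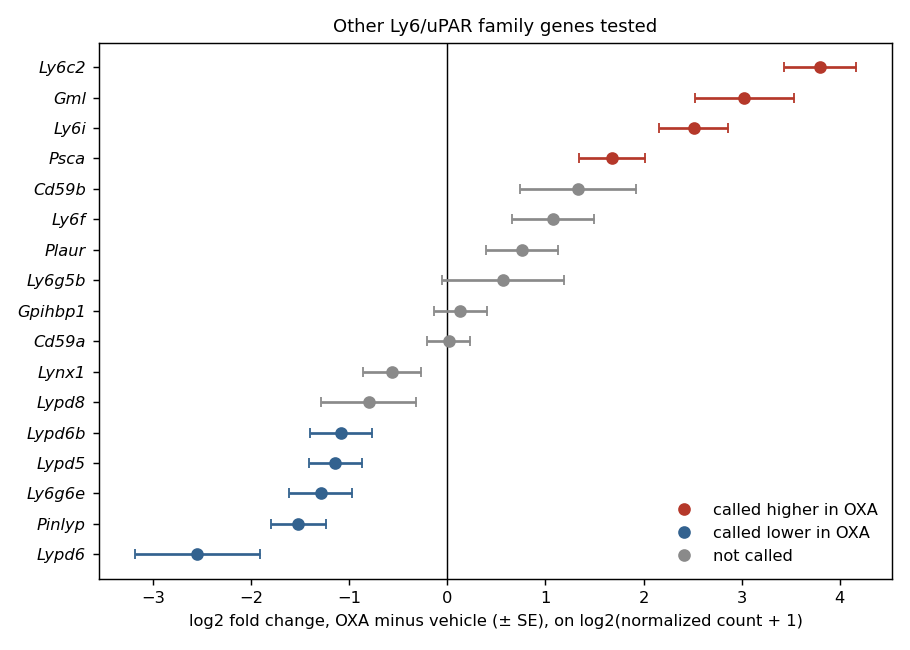
Log2 fold change, OXA minus vehicle, with its SE for the 17 tested family genes outside the 10 members, on log2(normalized count + 1), 5 libraries a group. The 4 genes called higher (red) run from Psca at 1.68 to Ly6c2 at 3.80, the 5 called lower (blue) from Lypd6 at -2.55 to Lypd6b at -1.08, and 8 were not called (grey).

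The chromosome 15 cluster held genes of both directions. From Psca to Gpihbp1 (74714839 to 75599781) the table holds 50 genes, of which 20 were tested, 8 of them members. Since the members were picked from this contrast, nothing is read from the order. The adjacent Slurp1, Lypd2 and Slurp2 had the 3 most negative values of the interval, at -6.18, -3.79 and -8.01. Lynx1, the next tested gene after Slurp2 and a brake on nicotinic receptors in neurons, had 181.67, 506.09, 206.39, 316.04 and 119.73 normalized counts in C1 and D1 to D4 of OXA, against 375.96, 425.23, 314.72, 326.15 and 311.93 in A1 to A5 of vehicle. Its log2 fold change was -0.56 ± 0.30 and it was not called (limma adjusted p = 0.168), although it passed without D1 (-0.84, limma adjusted p = 0.0135). The annotated transcripts of Lynx1 and Slurp2 share no stretch of 36 bases. On the other side of Slurp1, past Them6, Psca was higher, as given above.

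From Ly6e to Ly6c2 the called genes, Ly6e, Ly6i, Ly6a, Ly6c1 and Ly6c2, were all higher. The transcripts of Ly6a share stretches of 36 bases with those of Ly6i, Ly6c1 and Ly6c2, so these genes may not be separate measurements. Of the 12 tested genes of the interval that are not members, 4 were higher, 2 lower and 6 not called. The 2 lower ones were D730001G18Rik (-1.04, limma adjusted p = 0.0167) and 2010109I03Rik (-1.06, limma adjusted p = 0.0149), and the 4 higher ones were Psca, Gml, Ly6i and Ly6c2.

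**Figure D5:**
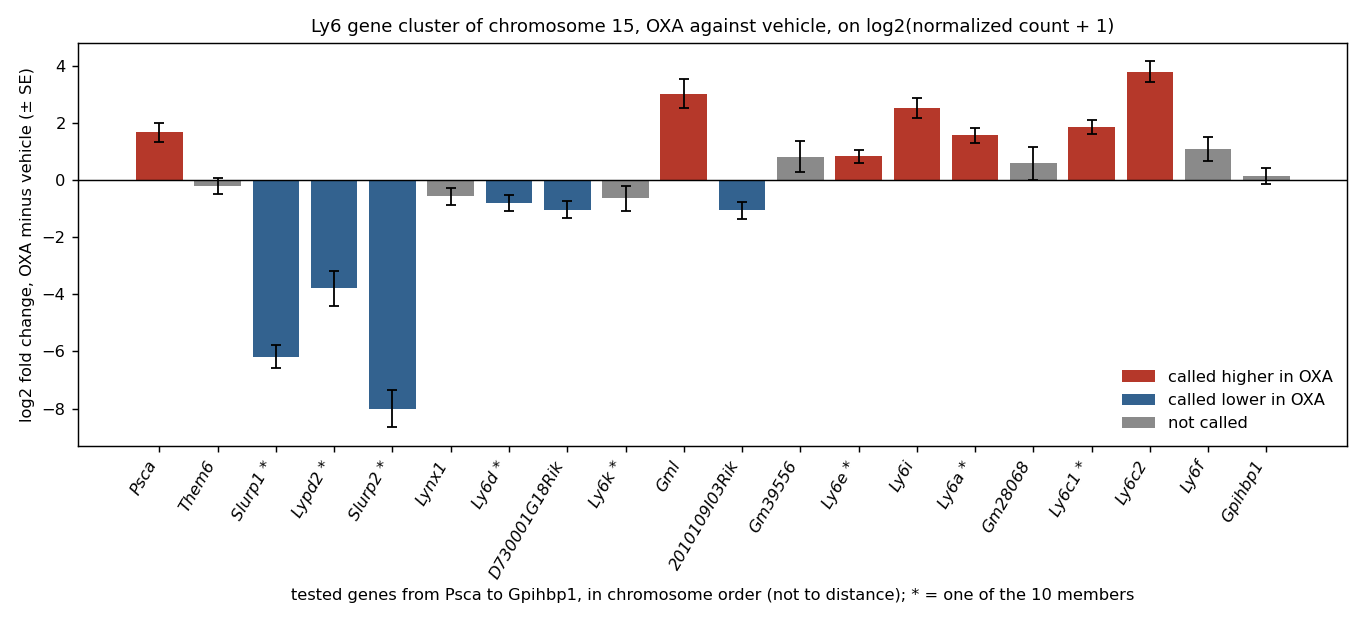
Log2 fold change, OXA minus vehicle, with its SE for the 20 tested genes from Psca to Gpihbp1 in chromosome order, not to distance, on log2(normalized count + 1); stars mark members. Slurp1, Lypd2 and Slurp2 form a block of low values near Psca, which was higher, and the 5 called genes from Ly6e to Ly6c2 all lie above 0.

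The receptors that Slurp and Lynx proteins act on were little represented. Of 28 genes for nicotinic and muscarinic receptors and acetylcholine handling, 10 were tested, and 1 was lower, none higher and 9 not called in OXA. The lower one was Chrna1, the alpha subunit of the muscle receptor, at 78.1 ± 48.1 in OXA and 162 ± 31.3 in vehicle (-1.27 ± 0.37, limma adjusted p = 0.0181). With the summed skeletal muscle markers as a covariate, chosen after seeing the data, its log2 fold change was -0.91 (limma adjusted p = 0.0144). The part of muscle in the difference was not tested. Chrna7, the alpha7 subunit, had no read in any of the 10 libraries, which allows at most the value of 3 reads given above for each library; a lower level was not detectable. Chrna9, a subunit also known from human keratinocytes, averaged 60.8 ± 32.0 in OXA and 89.7 ± 28.8 in vehicle (-0.65 ± 0.32, limma adjusted p = 0.144). Choline acetyltransferase, Chat, had 4 reads in OXA and 2 in vehicle.

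Ligands and partners of surface members were mostly not called. Plau, the urokinase that binds Plaur, averaged 13.5 ± 7.61 in OXA and 2.55 ± 2.24 in vehicle (2.17 ± 0.61, limma adjusted p = 0.0163), with no overlap. It passed the filter only through OXA, with 15 reads in vehicle, and the call was lost without A5, D2 and D4 (1.27, limma adjusted p = 0.144). Plat, the tissue plasminogen activator, averaged 109 ± 34.9 in OXA and 62.3 ± 17.0 in vehicle (0.78 ± 0.25, limma adjusted p = 0.0296), and its call was lost in 6 of 24 settings, without A1, A2, A4, C1, D1 or D2. Lpl, the lipoprotein lipase bound by Gpihbp1, averaged 1445 ± 528 in OXA and 2109 ± 715 in vehicle (-0.55 ± 0.27, limma adjusted p = 0.148). Agr2, a partner of Lypd3, had 4 reads in OXA and 1 in vehicle, and Tex101, the partner of Ly6k, had none.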

How the data were processed

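The deposited table holds a normalized signal, which the values show to be gene counts divided by 1 size factor for each library and then rounded (2 decimals). The submitters' processing notes name HTSeq 0.11.2, DESeq2 1.18.1, TopHat2 2.1.0, Bowtie2 2.2.6, cutadapt 1.10, Trim Galore and FastQC 0.11.5, with the build GRCm38. Whole reads were recovered from the steps of each library (100% of values within 0.006 normalized counts). Of 53229 gene identifiers matched with their version to GENCODE M21, 36.48% had a 3′ end lengthened by 300 bases in the table, and the others were identical.

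limma 3.58.1 with a mean-variance trend was run in R 4.3.3 on log2(value + 1), two-sided, for genes whose mean reached 5, with Benjamini-Hochberg adjustment and a threshold of 0.05. The scripts were tested on simulated data. Of 24 alternatives, 2 were count tests on the recovered reads (edgeR 4.0.16 and DESeq2 1.42.0), and the others changed the pseudocount, the filter, the scaling, the fit or the libraries (1 left out at a time, or the shallowest, A5, D2 and D4, together). The members and gene lists were chosen with earlier results of these data known. All members, all family genes above that mean and, for each member, the 3 protein-coding genes with the highest within-group r were to be named. Protein sequences were not used here.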

Additional observations from a re-analysis of the deposited data

Results flagged for a closer look

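Ly6k had 4.58 normalized counts in the OXA library C1, far below the other 4 OXA libraries at 22.35 to 34.4. It stood out because its gap to the next library exceeded Dixon's 95% critical value for 5 samples on the log2 scale. Chance marks about 1 in 20 groups in this way, and each of the 10 members was looked at in both groups. What set C1 apart was not tested.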

How the results depend on the processing

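In all 24 alternatives Slurp1, Slurp2 and Lypd2 were called lower and Ly6a and Ly6c1 higher. The number of members called lower was 5 in the main fit, and 3 with the title number as a replicate block. Leaving out 1 library at a time gave 3 to 5, with 3 without A3 and without A5. The members lost were Ly6d and Ly6g6c in these 3 settings. The number was 4 with a mean filter of 1, with no filter and with limma without the trend. It was also 4 with scaling to library totals and with quantile normalization. Wherever it was 4, the member lost was Ly6d. Of 4 same-numbered pairs, 1 had deviations that correlated at over 0.1. No differently numbered pairs were set beside them, so this cannot show whether the title numbers pair the libraries. The block joined A1, C1 and D1 and left A5 without a partner. Under that block the call of Lypd6b was also lost (-0.79, limma adjusted p = 0.0892), as was that of Plau (1.84, limma adjusted p = 0.0549). Scaling to library totals moved the median log2 fold change of all genes to 0.11 and called 1 cholinergic gene higher, Slc44a1, where none was called before. It also gave -5.27 for Slurp1, -6.03 for Slurp2 and -2.48 for Lypd2. Values scaled to library totals are smaller than the normalized counts, and 1 was still added before the log. That setting therefore also gave the added 1 more weight. A pseudocount of 5 on the normalized counts gave -5.54 for Slurp1, -6.37 for Slurp2 and -2.75 for Lypd2. Scaling and pseudocount were not tested apart. Leaving out 1 library gave 1 to 2 cholinergic genes lower, with Chrna9 added without D1. Ly6f passed under 4 alternatives. The cause of these changes was not tested. The log2 fold change of Lypd3 lay between -0.20 and 0.20. An alternative chosen after seeing the data, the summed skeletal muscle markers as a covariate, left each member's call as it was. Depth limits Slurp1, Slurp2 and Lypd2 in OXA, where most values are a few reads.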
